A study of Mus musculus with 22 samples.

Results

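The genes described here are 35 rows of a mouse liver RNA-seq table, out of 23909 gene symbols, that carry the symbols of PPAR alpha targets and of enzymes of fatty acid oxidation and ketone body formation. They fall into 2 regulators, 18 mitochondrial genes, 9 peroxisomal genes, 2 microsomal genes, 1 ketogenic gene and 3 genes whose products are cytosolic, on the cell surface or secreted. All 35 passed the filter on low values and are among the 12264 genes tested. The livers came from male C57BL/6 mice, all labelled as fasted. GF_TAC and GF_JAX (n = 5 each) were germ-free mice that had been given cecal contents from Taconic (TAC) or Jackson (JAX) mice. They were killed 4 weeks later after a fast of 16 h. GF (n = 4) were mice kept germ-free, that is without any microbes, and TAC and JAX (n = 4 each) were mice from those vendors, the sources of the cecal contents. The hours of fasting are given for the recipients only, no genetic change or drug is named for any group, and the labels do not say that each library came from a separate animal, so a p-value is set against the spread of these libraries alone, and that spread may be technical. Microbes were placed by the experimenters in the recipients only. The source of the GF mice and the housing of the vendor mice are not given in the sources used here, so GF and vendor mice may differ in more than microbes.

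PPAR alpha is a nuclear receptor that binds fatty acids. In the fasted liver, fatty acids released from fat tissue activate it, and it switches on the genes that burn them. Long fatty acids are first joined to coenzyme A, carried into mitochondria as carnitine esters and shortened by beta oxidation, and the liver turns part of the product into ketone bodies for other organs. Peroxisomes shorten very long and dicarboxylic acids, and microsomal Cyp4a enzymes make dicarboxylic acids by omega-hydroxylation. Of the ketone body enzymes, 1 gene, Bdh1, is among the 35, and the rest are counted with the other genes of the pathway.

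Values are RPKM, reads scaled to transcript length and to library size, and differences (± SE) are between means of log2(RPKM + 1), where low genes change by less than their true ratio. Adjusted p-values are from limma with Benjamini-Hochberg adjustment over 12264 genes, with a threshold of 0.05. Depth, read from the steps between low values, in units of 1000000 counted reads, was 2.1 to 3.05 in GF_TAC, 1.345 to 2.84 in GF_JAX, 1.40 to 3.51 in GF, 1.86 to 2.44 in TAC and 2.28 to 3.78 in JAX. The libraries divide into 2 types by how their values depend on transcript length. The slope of log2 RPKM on log2 length, relative to each gene's mean, was above 0 in every TAC and JAX library and in GF_JAX 1 and GF_JAX 4, and below 0 in every GF and GF_TAC library and in GF_JAX 2, 3 and 5. The slope is a graded measure cut at 0. It ran from -0.199 (GF 1) to 0.187 (GF_JAX 4), and the libraries nearest to 0 on each side were GF 2 (-0.0080) and JAX 1 (0.056). GF and vendor libraries thus differ in library type as well as in the mice, and these cannot be told apart except through GF_JAX. The most abundant genes (Alb, Apoa1, Apoe) stopped at the same 1.78 to 1.86 reads per base in every library, so abundant genes are compressed near a ceiling that lay between 493 and 1328 RPKM, lower in deeper libraries. At their highest group, 9 of the 35 genes reached under 25% of that ceiling, 18 reached 25 to 50%, 7 reached 50 to 75%, and Cyp4a14 reached 80.9% in JAX. Hepatocyte markers were high in every library, their 8 genes together at 2776 to 6415 RPKM, as in liver. They include Alb, Apoa1 and Apoe, the genes at the ceiling. Over the 22 libraries the coefficient of variation of Alb was 29%, and 2.13% after multiplying by depth. For these ceiling genes a difference between groups mostly repeats one in depth. Kidney markers were at 0 to 0.162 RPKM in sum and muscle markers at 0 to 1.44.

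**Figure D1:**
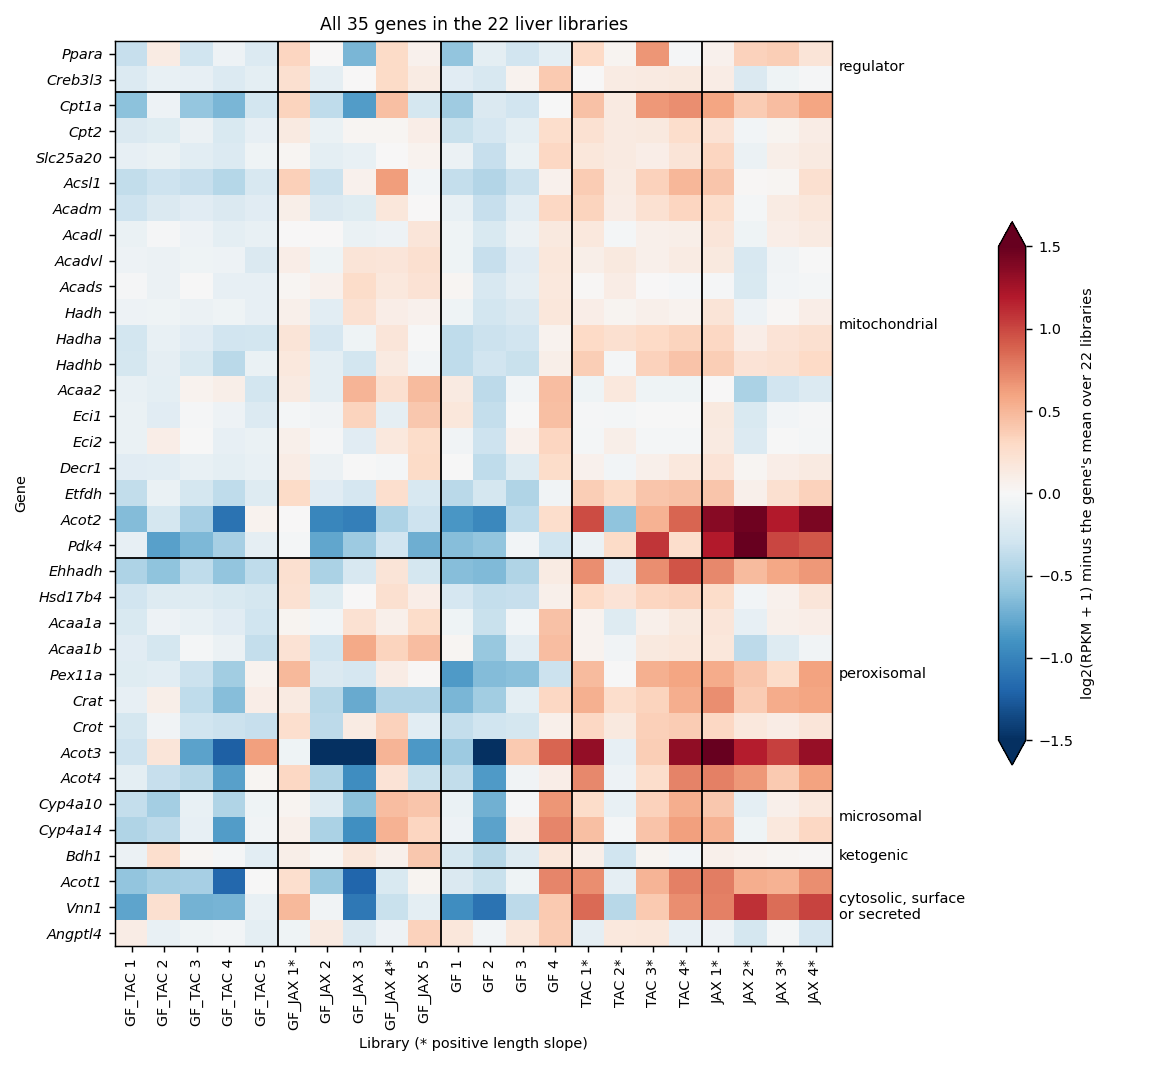
Level of the 35 genes (rows, by place of action) in the 22 libraries (columns, by group), as log2(RPKM + 1) minus the gene's mean over all libraries. Red is above and blue below the mean, and asterisks mark the 10 libraries with a positive length slope. The TAC and JAX columns are mostly red for Pdk4, Acot2, Ehhadh, Pex11a, Crat and Vnn1, and most GF, GF_JAX and GF_TAC columns are blue for these genes.

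The comparison of germ-free with vendor mice asks whether a liver without microbes expresses this programme differently. In GF livers, 15 of the 35 genes were lower than in JAX livers and 1, Angptl4, was higher. Of all genes tested, 12.3% were lower, 11.7% higher and 24% (either direction) passed. Against TAC livers, 16 of the 35 were lower and none higher, where 13.2% of all genes were lower and 24.3% passed in either direction. The median difference of the 35 genes was -0.24 against JAX, beside 0.0099 for all genes tested, and -0.38 against TAC, beside 0.024. Both comparisons use the same 4 GF libraries, so their results are not independent. The 4 GF libraries lay below all 4 JAX libraries for 14 of the 35 genes (15.2% of all genes) and below all 4 TAC libraries for 8 (14.2% of all genes). With library type as a term in the limma fit, none of the 35 passed in either comparison (3 against JAX and 1 against TAC had an unadjusted p under 0.05), where 237 and 72 of the 12264 genes did. Leaving out GF 1 brought the counts without that term to 10 against JAX and 8 against TAC. In bulk tissue, fewer cells of a type and less RNA per cell cannot be told apart. All 6 Kupffer cell markers in the table had higher values in GF than in either vendor (3 passed against JAX and 1 against TAC), and none was at 0. Their sum was 61.7 to 76.0 RPKM in GF, against 35.6 to 63.8 in TAC and 32.9 to 63.6 in JAX, and their part in the result was not tested. Of the other cell types, against JAX the markers Stab2 and Clec4g of sinusoidal endothelium (2 of 5), Dcn of stellate cells (1 of 5), Krt7 of cholangiocytes (1 of 4) and Adrb3 of adipose tissue (1 of 4) were higher in GF. Against TAC, Stab2, Dcn and Adrb3 were higher in GF, and Rgs5 of stellate cells was lower. The lists as a whole were mixed. Against each vendor, GF values were higher for 3 and lower for 2 endothelial markers, and for 2 and 3 stellate cell markers. For cholangiocytes these counts were 2 and 2, and for adipose tissue 1 and 3. Adipoq, Plin1 and Lep were at 0 in every GF library. The adipose sum was 8.74 to 22.4 RPKM in GF, 7.61 to 43.3 in TAC and 10.99 to 42.5 in JAX. Of the 8 hepatocyte markers, Hnf4a and Cps1 were lower in GF than in TAC and none passed against JAX (2 had an unadjusted p under 0.05, limma). The hepatocyte sum, which includes the genes at the ceiling, was 3022 to 6220 RPKM in GF, against 4026 to 5140 in TAC and 2776 to 4188 in JAX. The part of these cell types was not tested either. In the recipients the Kupffer cell sum was 46.9 to 83.2 RPKM in GF_TAC and 67.2 to 89.0 in GF_JAX. The direction held under the other scalings: with values rescaled to a common sum, which moved the median of all genes by -0.17 against JAX, 33 of the 35 had lower values with a median of -0.46, and 27 passed.

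**Figure D2:**
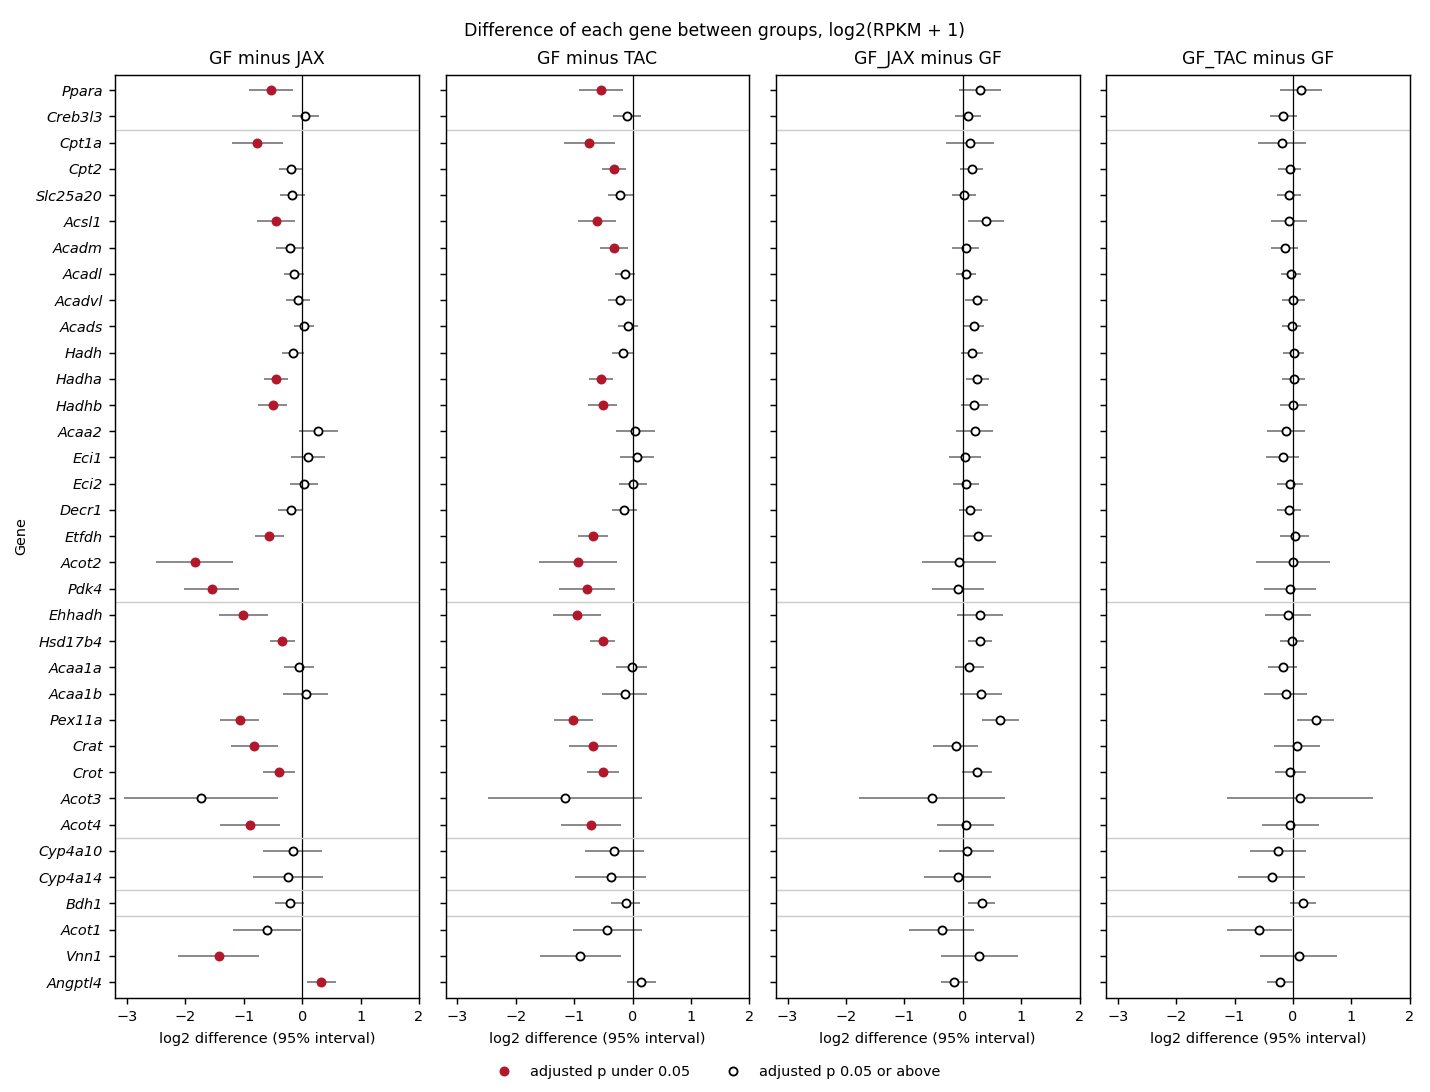
Difference of each of the 35 genes (rows, by place of action) in 4 comparisons, on the log2(RPKM + 1) scale with 95% intervals, red where the adjusted p was under 0.05. GF minus JAX and GF minus TAC hold 16 red points each, and both comparisons of recipients with GF hold none.

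Of the 2 regulators, Ppara itself was lower in GF livers. It had 38.2, 52.01, 47.3 and 52.1 RPKM in GF 1 to 4, against 71.5, 59.6, 92.2 and 57.2 RPKM in TAC 1 to 4 and 60.5, 73.9, 75.3 and 66.1 RPKM in JAX 1 to 4. No GF library reached the lowest library of either vendor. Its difference was -0.54 ± 0.18 against JAX (adjusted p = 0.0381) and -0.54 ± 0.18 against TAC (adjusted p = 0.0357), and the term for library type took it to -0.026 and -0.031. The call against JAX was lost in 6 of 22 fits that each left out 1 library (adjusted p up to 0.127), with depth as a term, with the replicate number as a block and with no filter on low values. Against TAC it was lost in 4 of 22 (adjusted p up to 0.128), under the block and with no filter. Creb3l3, a membrane-bound transcription factor of the liver that acts with PPAR alpha in fasting, averaged 229.8 ± 47.5 RPKM in GF, 242 ± 11.3 in TAC and 219 ± 20.5 in JAX (SD, n = 4 each). It did not pass in either comparison, with 95% intervals of -0.18 to 0.29 against JAX and -0.33 to 0.15 against TAC. In the RefSeq promoter table (GRCm38.p6), Creb3l3 is 1 of 2 among the 27 of the 35 genes with an entry whose 250 bases before the start hold 2 copies of AGGTCA with 1 base of any kind between them, the direct repeat that PPAR alpha binds with its partner RXR, on either strand with up to 2 mismatches. The other is Acot4. These 2 are 7.41% of the 27, and 859 of all 27025 promoters listed there (3.18%) hold such a match. A match is a description of letters and not a binding site. The stretch before Creb3l3 is shown with the match in capitals, 209 to 197 bases before the start (GRCm38.p6, chr10:81092592-81092841, minus strand).
Creb3l3: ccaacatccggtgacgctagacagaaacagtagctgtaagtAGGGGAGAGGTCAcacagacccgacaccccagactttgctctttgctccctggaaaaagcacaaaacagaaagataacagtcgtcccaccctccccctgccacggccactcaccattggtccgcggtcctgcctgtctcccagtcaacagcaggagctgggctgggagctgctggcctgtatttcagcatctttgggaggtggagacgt

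Among the 18 mitochondrial genes, 7 were lower in GF than in JAX and 9 were lower than in TAC. They included the entry step, both subunits of the trifunctional protein, the electron exit to the respiratory chain and 2 genes outside the oxidation spiral, Pdk4 and Acot2. Pdk4, the kinase that turns off pyruvate dehydrogenase when fat is burned, had 5.01, 5.19, 8.07 and 6.62 RPKM in GF 1 to 4, against 7.81, 10.4, 18.7 and 10.3 RPKM in TAC 1 to 4 and 20.3, 25.9, 17.7 and 16.8 RPKM in JAX 1 to 4. Every GF library was below every JAX library, and GF 3 was above TAC 1. The difference was -1.55 ± 0.23 against JAX (adjusted p = 0.000154) and -0.78 ± 0.23 against TAC (adjusted p = 0.0192), which is 2.93-fold and 1.71-fold lower on that scale. Without GF 1 or without TAC 3 the call against TAC was lost (adjusted p up to 0.0785). Acot2, a mitochondrial thioesterase that frees fatty acids from coenzyme A, had 11.5, 10.7, 16.5 and 26.5 RPKM in GF 1 to 4, against 44.2, 14.03, 31.8 and 40.98 RPKM in TAC 1 to 4 and 57.8, 61.7, 51.3 and 59.6 RPKM in JAX 1 to 4. All JAX libraries were far above GF, while TAC 2 lay among the GF libraries. It differed by -1.84 ± 0.32 against JAX (adjusted p = 0.000642) and -0.93 ± 0.32 against TAC (adjusted p = 0.0385), a call lost in 6 of 22 fits with 1 library left out (adjusted p up to 0.117). Acot1, Acot2, Acot3 and Acot4 lie close together on chromosome 12 in the order Acot2, Acot1, Acot4, Acot3 (GRCm38.p6) and are near-identical in part, so reads could be split between them and each value is uncertain.

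Cpt1a, the outer-membrane enzyme that controls the entry of long fatty acids, had 103, 129, 122 and 149 RPKM in GF 1 to 4, against 204, 165, 235 and 243 RPKM in TAC 1 to 4 and 226, 195, 207 and 227 RPKM in JAX 1 to 4. The GF libraries lay below all 8 vendor libraries. The difference was -0.77 ± 0.21 against JAX (adjusted p = 0.0145) and -0.74 ± 0.21 against TAC (adjusted p = 0.0164). Without GF 1 the call of Cpt1a against JAX was lost (adjusted p = 0.0537). Against TAC it was lost without GF 1 or without TAC 4 (adjusted p up to 0.0594). Cpt2, which rebuilds the coenzyme A ester inside, had 138, 147, 159 and 211 RPKM in GF 1 to 4, against 206, 193, 195 and 211 RPKM in TAC 1 to 4 and 204, 170.0, 181 and 189.5 RPKM in JAX 1 to 4. GF 4 overlapped both vendors, and Cpt2 passed against TAC (-0.31 ± 0.10, adjusted p = 0.0282) and not against JAX (-0.20 ± 0.10, adjusted p = 0.142). Its call against TAC was lost in 5 of 22 fits with 1 library left out (adjusted p up to 0.111). Acsl1, which joins long fatty acids to coenzyme A, had 231, 217, 237 and 309.9 RPKM in GF 1 to 4, against 385, 323, 378 and 419 RPKM in TAC 1 to 4 and 397, 300.1, 302 and 350.0 RPKM in JAX 1 to 4. GF 4 exceeded JAX 2 and JAX 3, and no GF library reached TAC. Its difference was -0.44 ± 0.16 against JAX (adjusted p = 0.0447) and -0.60 ± 0.16 against TAC (adjusted p = 0.0107). The call against JAX was lost in 14 of 22 fits that each left out 1 library (adjusted p up to 0.12), and that against TAC in none. Slc25a20, the carnitine carrier between these enzymes, did not pass (-0.17 ± 0.11 and -0.21 ± 0.11).

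Hadha and Hadhb encode the alpha and beta subunits of the mitochondrial trifunctional protein, which carries out the later steps of beta oxidation on long chains. Hadha had 125, 129.7, 133 and 168 RPKM in GF 1 to 4, against 201, 191, 201 and 206 RPKM in TAC 1 to 4 and 202, 174, 187 and 192 RPKM in JAX 1 to 4. Hadhb had 133, 141, 137 and 183 RPKM in GF 1 to 4, against 224, 169, 220.1 and 233 RPKM in TAC 1 to 4 and 224, 199.5, 203 and 213 RPKM in JAX 1 to 4. GF 4 was the highest GF library for both. It stayed below every vendor library for Hadha, and for Hadhb it was above TAC 2 only. Hadha differed by -0.45 ± 0.10 against JAX (adjusted p = 0.004202) and -0.53 ± 0.10 against TAC (adjusted p = 0.00151). Hadhb differed by -0.51 ± 0.12 against JAX (adjusted p = 0.00582) and -0.51 ± 0.12 against TAC (adjusted p = 0.00584). The 2 genes stand head to head on chromosome 5 with 272 bases between them and no other gene there (GRCm38.p6). Most of that gap is the stretch before Hadhb, shown because both genes were lower together; it holds no match to the repeat searched above. It is chr5:30155003-30155252, plus strand (GRCm38.p6, RefSeq).
Hadhb: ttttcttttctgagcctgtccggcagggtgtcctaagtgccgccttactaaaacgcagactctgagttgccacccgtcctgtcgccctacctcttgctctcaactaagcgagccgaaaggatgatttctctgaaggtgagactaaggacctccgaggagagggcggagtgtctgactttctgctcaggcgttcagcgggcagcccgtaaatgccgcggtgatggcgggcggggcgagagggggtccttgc

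Etfdh, which hands electrons from the acyl-CoA dehydrogenases to ubiquinone, had 142, 157, 137 and 181 RPKM in GF 1 to 4, against 243, 230.1, 251 and 256 RPKM in TAC 1 to 4 and 252, 199, 223 and 238 RPKM in JAX 1 to 4. The GF libraries were again below all 8 vendor libraries. The difference was -0.56 ± 0.12 against JAX (adjusted p = 0.00388) and -0.67 ± 0.12 against TAC (adjusted p = 0.00136). Acadm, the medium-chain acyl-CoA dehydrogenase, had 247, 209, 239 and 331 RPKM in GF 1 to 4, against 335, 288, 312 and 333 RPKM in TAC 1 to 4 and 321, 261, 289.8 and 301 RPKM in JAX 1 to 4. GF 4 was above all JAX libraries and below TAC 1 and TAC 4, and the gene passed against TAC (-0.32 ± 0.12, adjusted p = 0.0466) and not against JAX (-0.21 ± 0.12, adjusted p = 0.182). With 1 library left out, the call against TAC was lost in 13 of 22 fits (adjusted p up to 0.125). The other acyl-CoA dehydrogenases did not pass: Acadl (long chain) differed by -0.14 ± 0.083 against JAX and -0.13 ± 0.083 against TAC, Acadvl (very long chain) by -0.069 ± 0.10 and -0.22 ± 0.10, and Acads (short chain) by 0.029 ± 0.085 and -0.076 ± 0.085. Nor did Hadh, the 3-hydroxyacyl-CoA dehydrogenase of shorter chains, Decr1, Eci1 and Eci2, which rearrange double bonds of unsaturated chains, or Acaa2, the thiolase of the final cleavage. Their differences ran from -0.20 (Decr1) to 0.28 (Acaa2) against JAX and from -0.16 (Hadh) to 0.080 (Eci1) against TAC.

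In the mitochondrial genes that did not pass in either comparison, GF 4 was the highest of the 4 GF libraries throughout. Acadl averaged 186 ± 20.4 RPKM in GF, 202 ± 10.5 in TAC and 205 ± 15.2 in JAX. Acadvl averaged 301 ± 45.5 RPKM in GF, 348 ± 8.35 in TAC and 315 ± 33.96 in JAX. Acads averaged 215 ± 26.1 RPKM in GF, 225 ± 8.76 in TAC and 209 ± 14.1 in JAX. In these 3 dehydrogenases GF spread more than either vendor. Hadh averaged 236 ± 33.3 RPKM in GF, 263 ± 4.02 in TAC and 262 ± 21.2 in JAX. Decr1 averaged 112 ± 22.2 RPKM in GF, 122 ± 6.81 in TAC and 127 ± 6.21 in JAX. Slc25a20 averaged 191 ± 38.02 RPKM in GF, 218 ± 6.61 in TAC and 213 ± 24.7 in JAX. The SD of GF was again the largest for each of these 3 genes. Eci1 averaged 359 ± 82.6 RPKM in GF, 333 ± 2.201 in TAC and 330.2 ± 35.1 in JAX. Eci2 averaged 265 ± 48.7 RPKM in GF, 260.4 ± 10.9 in TAC and 256 ± 24.9 in JAX. Acaa2 averaged 569 ± 140.0 RPKM in GF, 539 ± 43.97 in TAC and 462 ± 64.5 in JAX. These 3 genes had GF means above both vendors. All values are mean ± SD with n = 4 libraries a group.

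**Figure D3:**
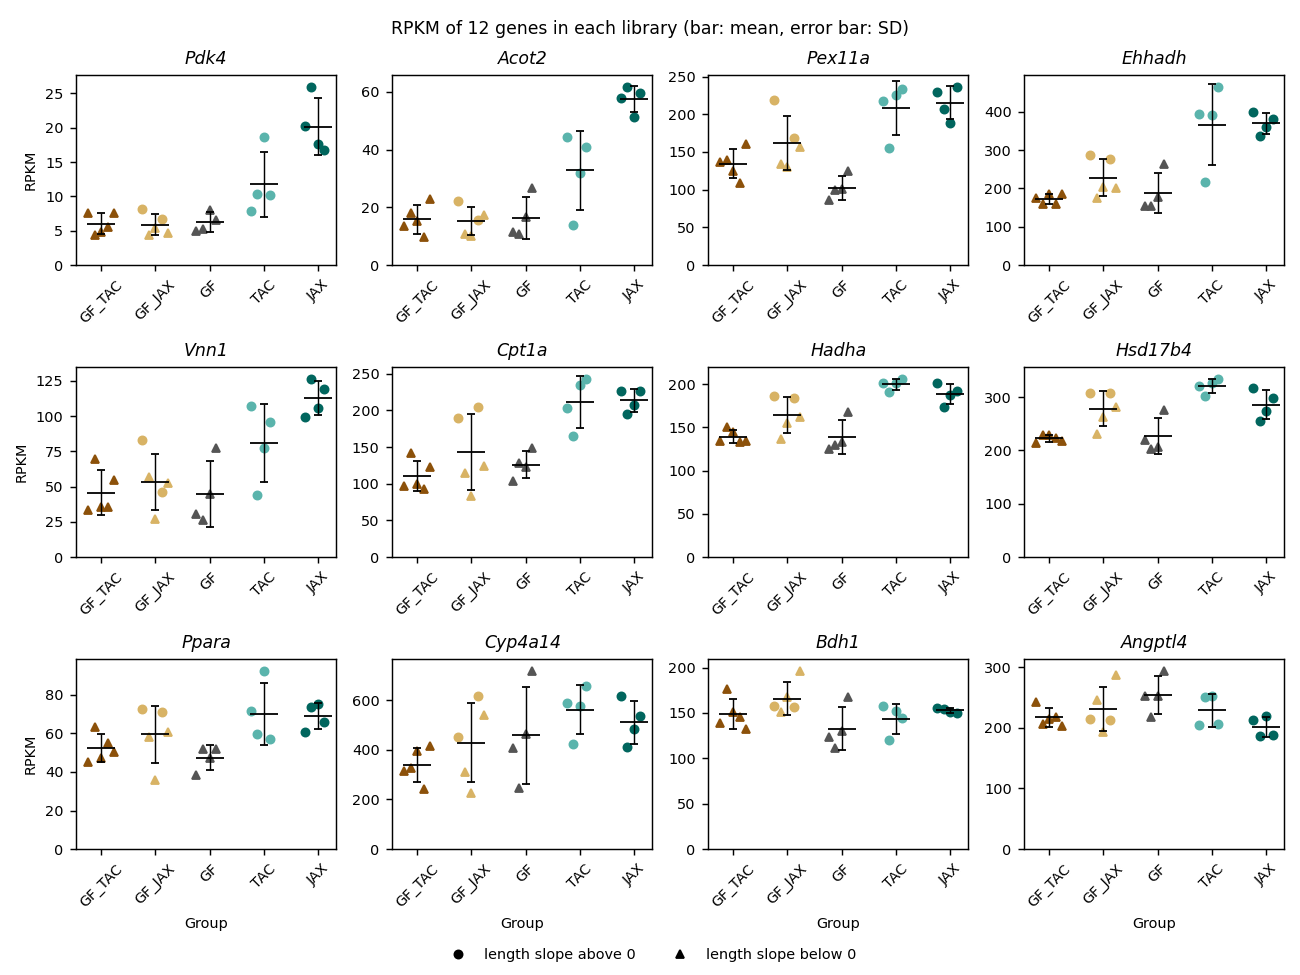
RPKM of 12 of the genes in each library (points), with the group mean and SD (bars), in the groups GF_TAC, GF_JAX, GF, TAC and JAX. Circles are libraries with a length slope above 0 and triangles below 0. Acot2 separates all JAX libraries (51.3 RPKM or more) from all GF and recipient libraries (26.5 or less), whereas Hsd17b4 in GF_JAX 1 and GF_JAX 4 (308 each) is at the vendor level. For Hsd17b4, GF 4 (276), GF_JAX 3 (263) and GF_JAX 5 (280) also lie within the range of JAX (255 to 316).

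As grouped here, the 9 peroxisomal genes held the highest share of lower genes. In GF, 6 of 9 were lower against JAX and 6 of 9 against TAC, with a median difference of -0.82 and -0.68. Of all genes tested, 12.3% and 13.2% were lower. The high share belongs to these 9 genes. Of 29 other peroxisome genes tested, 5 were lower and 4 higher against JAX, and 5 lower and 2 higher against TAC. Each gene was counted in a single class, also where its product may act in more than one place, and the ranking of classes depends on that placing. Pex11a, which drives peroxisome elongation and division, had 85.8, 98.9, 100.2 and 124 RPKM in GF 1 to 4, against 217, 155, 226 and 234 RPKM in TAC 1 to 4 and 229.7, 207, 188 and 236 RPKM in JAX 1 to 4. The highest GF library was below the lowest vendor library. The difference was -1.07 ± 0.16 against JAX (adjusted p = 0.000175) and -1.01 ± 0.16 against TAC (adjusted p = 0.000578), which is 2.11-fold and 2.02-fold lower on that scale. Ehhadh, the bifunctional enzyme of the peroxisomal spiral and a classic PPAR alpha target, had 155, 153, 177 and 263 RPKM in GF 1 to 4, against 394, 216, 393 and 465 RPKM in TAC 1 to 4 and 400.1, 337, 361 and 379.9 RPKM in JAX 1 to 4. GF 4 was above TAC 2 and below every other vendor library. The difference was -1.01 ± 0.20 against JAX (adjusted p = 0.00192) and -0.95 ± 0.20 against TAC (adjusted p = 0.003503). Hsd17b4, the second bifunctional enzyme, which serves branched chains and bile acid precursors, had 219, 203, 206 and 276 RPKM in GF 1 to 4, against 321, 301, 327 and 334 RPKM in TAC 1 to 4 and 316, 255, 275 and 298 RPKM in JAX 1 to 4. No GF library reached TAC, and GF 4 overlapped JAX. The difference was -0.34 ± 0.10 against JAX (adjusted p = 0.0228) and -0.51 ± 0.10 against TAC (adjusted p = 0.00261), and with 1 library left out the call against JAX was lost in 4 of 22 fits (adjusted p up to 0.0677).

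Crot and Crat make carnitine esters of the shortened chains and of acetyl groups, the form in which they leave the peroxisome. Crot had 188, 196, 201 and 256 RPKM in GF 1 to 4, against 299.8, 269, 311 and 315 RPKM in TAC 1 to 4 and 301, 270.1, 262 and 274 RPKM in JAX 1 to 4. The GF libraries lay below all vendor libraries, and the difference was -0.40 ± 0.13 against JAX (adjusted p = 0.0321) and -0.51 ± 0.13 against TAC (adjusted p = 0.00997). The call of Crot against JAX was lost in 6 of 22 such fits (adjusted p up to 0.0989). Crat had 31.5, 35.2, 46.2 and 63.7 RPKM in GF 1 to 4, against 74.7, 61.9, 64.99 and 74.98 RPKM in TAC 1 to 4 and 83.6, 67.1, 75.9 and 77.7 RPKM in JAX 1 to 4. GF 4 overlapped TAC 2 only, and the difference was -0.82 ± 0.20 against JAX (adjusted p = 0.00701) and -0.68 ± 0.20 against TAC (adjusted p = 0.0177). Without GF 1 the call of Crat against TAC was lost (adjusted p = 0.074). Acot4, a peroxisomal thioesterase for dicarboxylic acids, had 27.4, 19.5, 34.4 and 38.5 RPKM in GF 1 to 4, against 59.7, 33.8, 43.3 and 60.7 RPKM in TAC 1 to 4 and 61.3, 56.8, 47.2 and 54.98 RPKM in JAX 1 to 4. JAX was apart from GF, TAC 2 was not, and the difference was -0.90 ± 0.25 against JAX (adjusted p = 0.0159) and -0.71 ± 0.25 against TAC (adjusted p = 0.04398). The call of Acot4 against TAC was lost in 10 of 22 such fits (adjusted p up to 0.127). Acot4 is the other gene with a match to the direct repeat, on the minus strand in the last 13 bases before its start (capitals; GRCm38.p6, chr12:84038129-84038378, plus strand, RefSeq).
Acot4: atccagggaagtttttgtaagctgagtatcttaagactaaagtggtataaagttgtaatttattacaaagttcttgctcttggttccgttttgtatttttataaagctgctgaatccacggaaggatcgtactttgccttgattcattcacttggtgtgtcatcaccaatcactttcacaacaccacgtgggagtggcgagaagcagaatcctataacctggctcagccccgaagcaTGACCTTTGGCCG

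Acot3, its neighbour, spread more than any of the other 34 genes between GF libraries (2.17 to 30.6 RPKM, against 14.8 to 42.4 in TAC and 34 to 54.7 in JAX) and did not pass (-1.73 ± 0.63 against JAX, adjusted p = 0.0519; -1.15 ± 0.63 against TAC, adjusted p = 0.1805). The 2 peroxisomal thiolases, near-identical copies between which reads may be split, did not pass. Acaa1b had 451, 299, 397 and 612 RPKM in GF 1 to 4, against 459, 426, 489.6 and 496 RPKM in TAC 1 to 4 and 499.5, 338, 387 and 429 RPKM in JAX 1 to 4. The groups overlapped, and the 95% interval was -0.33 to 0.44 against JAX and -0.52 to 0.25 against TAC. For Acaa1a it was -0.31 to 0.20 and -0.27 to 0.24.

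Neither microsomal gene differed between GF and vendor livers beyond the spread of the libraries. Cyp4a14 had 406, 246, 461 and 716 RPKM in GF 1 to 4, against 587, 422, 578 and 658 RPKM in TAC 1 to 4 and 616, 411, 482 and 535 RPKM in JAX 1 to 4. Cyp4a10 had 317, 207, 337 and 538 RPKM in GF 1 to 4, against 412, 316, 435 and 496 RPKM in TAC 1 to 4 and 452, 308, 358 and 380.2 RPKM in JAX 1 to 4. GF 4 was the highest and GF 2 the lowest of these 12 libraries for both genes, so GF spanned both vendors. The 95% interval of the difference was -0.85 to 0.36 against JAX and -0.98 to 0.23 against TAC for Cyp4a14, and -0.67 to 0.33 and -0.81 to 0.19 for Cyp4a10. These intervals include a fall as large as that of Crot against JAX (-0.40). The coefficient of variation of Cyp4a14 was 42.6% in GF, against 17.8% in TAC and 17.0% in JAX. Cyp4a10 and Cyp4a14 are neighbours on chromosome 4 (GRCm38.p6) and alike in sequence, so their values may share reads. GF 2, the deepest GF library, was the lowest of its group for 25 of the 35 genes, and GF 4, the shallowest, the highest for 34. JAX 2, the deepest of all 22, was the lowest JAX library for 25. The part of depth and of the ceiling in this order was not tested. In the comparisons of GF with vendor livers, 21 genes passed against JAX with depth as a term, without Ppara and Angptl4, and 18 against TAC. With the ceiling corrected, 22 and 18 passed. These counts concern the group differences and not the order of libraries within a group.

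Bdh1, which turns acetoacetate into beta-hydroxybutyrate, had 123, 111, 129.6 and 167 RPKM in GF 1 to 4, against 158, 120.3, 152 and 144 RPKM in TAC 1 to 4 and 156, 154, 151 and 149.8 RPKM in JAX 1 to 4. GF 4 was above every vendor library, the other GF libraries were below every JAX library, and the gene did not pass (-0.22 ± 0.12 against JAX, adjusted p = 0.167; -0.12 ± 0.12 against TAC, adjusted p = 0.4599). Of the 3 remaining genes, Vnn1, a surface enzyme that recycles pantothenate for coenzyme A, had 30.2, 26.6, 44.6 and 77.3 RPKM in GF 1 to 4, against 107, 43.7, 77.6 and 95.9 RPKM in TAC 1 to 4 and 99.6, 126, 105 and 119 RPKM in JAX 1 to 4. It was lower than in JAX (-1.43 ± 0.33, adjusted p = 0.00571, 2.7-fold), where no libraries overlapped, and did not pass against TAC (-0.89 ± 0.33, adjusted p = 0.0542), where GF 4 overlapped. Acot1, the cytosolic thioesterase, had 96.01, 88.3, 107 and 187 RPKM in GF 1 to 4, against 182, 102, 159 and 190.4 RPKM in TAC 1 to 4 and 191, 164, 161 and 182 RPKM in JAX 1 to 4. It did not pass (-0.61 ± 0.28, adjusted p = 0.116, and -0.43 ± 0.28, adjusted p = 0.2598). Angptl4, a secreted inhibitor of lipoprotein lipase, had 253, 217, 252 and 294 RPKM in GF 1 to 4, against 204, 251, 253 and 206 RPKM in TAC 1 to 4 and 212, 186, 219.6 and 189 RPKM in JAX 1 to 4. Higher in GF than in JAX (0.33 ± 0.12, adjusted p = 0.0466), it overlapped through GF 2, lost the call in 11 of 22 fits that each left out 1 library (adjusted p up to 0.1502), and did not pass against TAC (0.15 ± 0.12, adjusted p = 0.345).

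Transcript length moved with these differences. The 15 genes lower against JAX had a median transcript of 2996 bases, and the other 20 one of 2078 bases. Against TAC the medians were 2988.5 bases for 16 genes and 2109 for 19. Across the 35 genes the correlation of log2 length with the difference was -0.45 against JAX and -0.54 against TAC, and over 11169 genes with a length it was -0.37 and -0.41. Genes are not independent replicates, so these are descriptions. With the length trend taken out of each library, a fit added after seeing the data, 18 genes passed against JAX and 21 against TAC. Of the original calls, 15 of 16 remained against JAX (Acsl1 was lost) and 15 of 16 against TAC (Acot4 was lost). The trend taken out was fitted over genes in general. Per doubling of length, the difference against JAX moved by -0.488 across the 35 and by -0.184 across all genes with a length. Against TAC these values were -0.369 and -0.194. Part of the relation with length in the 35 may therefore remain, and these calls cannot be read as free of length.

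Within GF_JAX both library types occur, with 2 libraries of the type seen in vendor mice (GF_JAX 1 and 4) and 3 of the type seen in GF. GF_JAX 1 and GF_JAX 4 were both above GF_JAX 2, 3 and 5 for 15 of the 35 genes (42.9%), and for 22.9% of all genes tested. For the 15 genes lower in GF than in JAX, both libraries reached at least the lowest JAX library for 6 (Ppara, Acsl1, Hadha, Etfdh, Hsd17b4 and Crot), 1 of them did for Cpt1a and Pex11a, and neither did for 7 (Hadhb, Acot2, Pdk4, Ehhadh, Crat, Acot4 and Vnn1). Libraries of the other type reached it as well. At least 1 of GF_JAX 2, 3 and 5 did for 4 of these 6 (Ppara, Acsl1, Hsd17b4 and Crot). GF 4 did for Acsl1 and Hsd17b4. For the 16 genes lower in GF than in TAC, both reached at least the lowest TAC library for 10 (Ppara, Cpt1a, Acsl1, Hadhb, Acot2, Ehhadh, Hsd17b4, Pex11a, Crot and Acot4), 1 of them did for Acadm and Pdk4, and neither did for 4 (Cpt2, Hadha, Etfdh and Crat). For Hadhb, Acot2, Ehhadh and Acot4 the lowest TAC library was TAC 2, and GF 4 exceeded it too. Reaching it therefore does not set these genes apart from GF, and GF 4 also exceeded the lowest TAC library for Acadm. At least 1 GF_TAC library reached it for 4 of the 16 (Ppara, Acot2, Pex11a and Acot4). The share of all genes was not computed for these counts. Acot2 (22.04 and 15.6 RPKM, against 51.3 or more in JAX) and Pdk4 (8.19 and 6.64 RPKM, against 16.8 or more) were at or near the GF level in these libraries of the same type as JAX. Ehhadh lay between GF and JAX (286 and 276 RPKM, against 337 or more in JAX), and Vnn1 (82.8 and 46.5 RPKM, against 99.6 or more) lay between them in GF_JAX 1 and within the range of GF in GF_JAX 4. No p is given for this description of 2 libraries.

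Colonisation of germ-free mice was followed in both sets of recipients, which share the 4 GF libraries as their reference. In GF_JAX against GF, none of the 35 genes passed with limma (8 had an unadjusted p under 0.05), where 0.612% of all genes did. Values were higher for 28 of the 35, with a median difference of 0.13, beside -0.0024 for all genes. Library type and depth move with this comparison too. GF_JAX 1 and 4 are of the vendor type and all GF libraries of the other. Mean depth was 1.79 in GF_JAX and 2.33 in GF, in the units above. None of the 35 passed with depth as a term or without GF_JAX 1 and 4. The 8 hepatocyte markers also had higher values in GF_JAX (median 0.31, 2 with an unadjusted p under 0.05, none past the limma threshold), and their part was not tested. Alb, Apoa1 and Apoe among them follow the ceiling, on average 1085 RPKM in GF_JAX and 875 in GF. In GF_TAC against GF, none passed (2 had an unadjusted p under 0.05), where 0.204% of all genes did, and the median was -0.054, beside -0.0046 for all genes. Values were lower for 24 of the 35, but higher for 24 after rescaling to a common sum and for 22 after quantile normalization.

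Pex11a had the smallest p in both comparisons, with 137, 139.9, 125, 109 and 161 RPKM in GF_TAC 1 to 5 and 219, 134, 130.2, 168 and 157 RPKM in GF_JAX 1 to 5, against 85.8 to 124 RPKM in GF. All 5 GF_JAX libraries were above all GF libraries, as for 1.34% of all genes, and 4 of the 5 GF_TAC libraries were. The difference was 0.64 ± 0.15 in GF_JAX (adjusted p = 0.0534) and 0.39 ± 0.15 in GF_TAC (adjusted p = 0.4505). Leaving out TAC 2, GF_JAX 2, GF_JAX 3 or GF_JAX 5 each took Pex11a past the threshold in GF_JAX (adjusted p 0.0348 to 0.0445), as did a stricter filter (0.0476) and removal of the length trend (0.0444). Hsd17b4 had 215, 228, 228, 222 and 218 RPKM in GF_TAC 1 to 5 and 308, 230.2, 263, 308 and 280.4 RPKM in GF_JAX 1 to 5, against 203 to 276 RPKM in GF. It differed by 0.30 ± 0.10 in GF_JAX (adjusted p = 0.153) and by -0.015 ± 0.10 in GF_TAC (adjusted p = 0.978). Bdh1 had 139, 177, 151, 145 and 132 RPKM in GF_TAC 1 to 5 and 158, 151, 167, 156 and 196 RPKM in GF_JAX 1 to 5, against 111 to 167 RPKM in GF, a difference of 0.33 ± 0.11 (adjusted p = 0.159) and 0.17 ± 0.11 (adjusted p = 0.726). Acot1 had 74.2, 78.7, 79.2, 48.8 and 112 RPKM in GF_TAC 1 to 5 and 133, 75.5, 48.7, 95.7 and 115 RPKM in GF_JAX 1 to 5, against 88.3 to 187 RPKM in GF. Its difference was -0.36 ± 0.27 in GF_JAX (adjusted p = 0.512) and -0.58 ± 0.27 in GF_TAC (adjusted p = 0.565), so neither passed.

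Pdk4, Acot2, Vnn1 and Ehhadh, all lower in GF than in JAX, did not pass between recipients and GF. Pdk4 had 7.62, 4.34, 4.85, 5.61 and 7.54 RPKM in GF_TAC 1 to 5 and 8.19, 4.44, 5.43, 6.64 and 4.64 RPKM in GF_JAX 1 to 5, against 5.01 to 8.07 RPKM in GF, with 95% intervals of -0.53 to 0.37 for GF_JAX and -0.50 to 0.39 for GF_TAC. Acot2 had 13.6, 18.02, 15.2, 9.59 and 22.8 RPKM in GF_TAC 1 to 5 and 22.04, 10.6, 10.2, 15.6 and 17.4 RPKM in GF_JAX 1 to 5, against 10.7 to 26.5 RPKM in GF, with intervals of -0.69 to 0.57 and -0.63 to 0.63. For both genes every recipient library was below every JAX library. Vnn1 had 33.6, 69.5, 35.5, 35.7 and 54.3 RPKM in GF_TAC 1 to 5 and 82.8, 56.6, 27.3, 46.5 and 52.8 RPKM in GF_JAX 1 to 5, against 26.6 to 77.3 RPKM in GF (-0.37 to 0.94 and -0.56 to 0.75). Ehhadh had 175, 159, 185, 159.7 and 186 RPKM in GF_TAC 1 to 5 and 286, 174, 204, 276 and 202 RPKM in GF_JAX 1 to 5, against 153 to 263 RPKM in GF (-0.10 to 0.69 and -0.47 to 0.32). The 2 GF_JAX libraries of the vendor type were the highest recipients for Ehhadh. For Vnn1, GF_JAX 1 and GF_TAC 2 were the highest.

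Ppara had 45.3, 63.3, 47, 55.04 and 50.3 RPKM in GF_TAC 1 to 5 and 72.4, 58.2, 35.6, 71.1 and 60.5 RPKM in GF_JAX 1 to 5, against 38.2 to 52.1 RPKM in GF. Cpt1a had 97.2, 142, 100.1, 92.8 and 123 RPKM in GF_TAC 1 to 5 and 189, 115, 83.6, 204 and 124 RPKM in GF_JAX 1 to 5, against 103 to 149 RPKM in GF. GF_JAX 1 and 4 stood above every other recipient for both genes, and GF_JAX 3 was the lowest. Crat had 46.8, 54.6, 39, 32.4 and 55.1 RPKM in GF_TAC 1 to 5 and 56.3, 38.3, 29.9, 37.4 and 37.4 RPKM in GF_JAX 1 to 5, against 31.5 to 63.7 RPKM in GF. Acot4 had 32.2, 28.02, 26.6, 19.9 and 36.4 RPKM in GF_TAC 1 to 5 and 44.5, 25.9, 18.2, 41.3 and 28.2 RPKM in GF_JAX 1 to 5, against 19.5 to 38.5 RPKM in GF. Both recipient groups overlapped GF for these 2 genes. Crat differed by -0.12 ± 0.19 in GF_JAX and 0.070 ± 0.19 in GF_TAC, and Acot4 by 0.051 ± 0.24 and -0.046 ± 0.24. Angptl4 had 243, 207, 214, 219 and 203 RPKM in GF_TAC 1 to 5 and 215, 246, 193, 213 and 287 RPKM in GF_JAX 1 to 5, against 217 to 294 RPKM in GF. Acaa1b had 393, 369, 434, 418 and 344 RPKM in GF_TAC 1 to 5 and 514, 361, 657, 559 and 613 RPKM in GF_JAX 1 to 5, against 299 to 612 RPKM in GF. Neither passed, and the recipients of both kinds lay within or close to the range of GF.

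Cyp4a14 had 314, 327, 394, 240.4 and 415 RPKM in GF_TAC 1 to 5 and 452, 309, 227, 615 and 538 RPKM in GF_JAX 1 to 5, against 246 to 716 RPKM in GF. Cyp4a10 had 266, 239, 316, 249 and 326 RPKM in GF_TAC 1 to 5 and 350.0, 297, 222, 469.5 and 454 RPKM in GF_JAX 1 to 5, against 207 to 538 RPKM in GF. The range in GF_JAX was nearly as wide as in GF, with GF_JAX 3 low and GF_JAX 4 and 5 high, and the interval for Cyp4a14 was -0.66 to 0.49 in GF_JAX and -0.93 to 0.21 in GF_TAC. Acsl1 had 229, 239, 232, 219.5 and 250.2 RPKM in GF_TAC 1 to 5 and 380.1, 237, 310.4, 459 and 287 RPKM in GF_JAX 1 to 5, against 217 to 309.9 RPKM in GF, a difference of 0.40 ± 0.15 in GF_JAX (adjusted p = 0.196). Hadha had 134, 150.3, 144, 133 and 134 RPKM in GF_TAC 1 to 5 and 186, 136, 155, 184 and 163 RPKM in GF_JAX 1 to 5. Hadhb had 143, 157, 147, 131 and 161 RPKM in GF_TAC 1 to 5 and 194, 157, 143, 190.1 and 168 RPKM in GF_JAX 1 to 5. GF_JAX 1 and 4 were the highest recipients for all 3 genes. Etfdh had 145, 175, 156, 144 and 164 RPKM in GF_TAC 1 to 5 and 229, 167, 157, 224 and 159 RPKM in GF_JAX 1 to 5. Crot had 201, 232, 197, 194 and 190.5 RPKM in GF_TAC 1 to 5 and 288, 184, 264, 309 and 217 RPKM in GF_JAX 1 to 5. For these 2 as well, GF_JAX 1 and 4 led. Cpt2 had 151, 154, 164, 149 and 161 RPKM in GF_TAC 1 to 5 and 193, 163, 178, 178 and 188 RPKM in GF_JAX 1 to 5. Acadm had 215, 229, 236, 229 and 238 RPKM in GF_TAC 1 to 5 and 283, 229, 235, 300.3 and 267 RPKM in GF_JAX 1 to 5. The GF_TAC libraries lay at the low end of both. The 12 genes not given by library here had differences from -0.53 (Acot3) to 0.24 (Acadvl) in GF_JAX and from -0.18 (Eci1) to 0.12 (Acot3) in GF_TAC, none past the threshold.

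Whether the donor mattered was asked in recipients and in the vendor mice themselves. Between GF_TAC and GF_JAX, none of the 35 genes passed with limma (14 had an unadjusted p under 0.05), where 0.171% of all genes did. The values of 31 genes were lower in GF_TAC, with a median of -0.22, beside 0.0087 for all genes. All 8 hepatocyte markers had lower values in GF_TAC as well, with a median of -0.52 (6 had an unadjusted p under 0.05, and none passed with limma). Their sum was 3259 to 4380 RPKM in GF_TAC and 3513 to 6415 in GF_JAX, none was at 0, and their part in the result was not tested. Alb, Apoa1 and Apoe among these markers follow the ceiling, on average 734 RPKM in GF_TAC and 1085 in GF_JAX. For Hsd17b4, Acads, Acaa1a, Acadvl and Decr1 all 5 GF_TAC libraries were below all 5 GF_JAX libraries, as for 0.97% of all genes. Acsl1 (-0.48 ± 0.14, adjusted p = 0.18) and Hsd17b4 (-0.31 ± 0.092, adjusted p = 0.18) had the smallest p. Their values by library are given above. Acsl1 passed when GF_JAX 2 was left out (adjusted p = 0.0436). Library type and depth move with the donor here: all 5 GF_TAC libraries are of the type seen in GF, against 3 of 5 GF_JAX libraries, and mean depth was 2.56 in GF_TAC and 1.79 in GF_JAX, in the units above. With library type as a term, 26 of the 35 were lower (median -0.12) and none passed, and with depth as a term 25 were lower (median -0.052) and none passed.

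Between TAC and JAX mice, none of the 35 passed with limma (2 had an unadjusted p under 0.05), where 0.294% of all genes did, and the median difference was 0.019, beside 0.0028 for all genes. Values were higher in TAC for 21 genes, but lower for 21 after rescaling to a common sum and for 33 after quantile normalization. Those 2 were Pdk4 (-0.77 ± 0.23, adjusted p = 0.234) and Acot2 (-0.91 ± 0.32, adjusted p = 0.336), whose values by library stand above: every TAC library was below every JAX library for Acot2 (3.88% of all genes), and TAC 3 overlapped JAX for Pdk4. TAC 2 was the lowest TAC library for 26 of the 35 genes. The donor difference in recipients minus the vendor difference passed for none of the 35 with limma (13 had an unadjusted p under 0.05), where 1.48% of all genes passed. Its value was below 0 for 29 of the 35 (median -0.25), but above 0 for 19 after quantile normalization and for 19 with depth as a term. All 8 hepatocyte markers were below 0 here too (median -0.88), Tat and Hnf4a passed, and their part was not tested. Alb, Apoa1 and Apoe among them move with depth through the ceiling. The smallest p belonged to Hsd17b4 (-0.48 ± 0.14, adjusted p = 0.0808) and Acsl1 (-0.64 ± 0.21, adjusted p = 0.128). Hsd17b4 passed without GF 4 (adjusted p = 0.0442), both passed without GF_JAX 2 (0.0254 and 0.0353), and with the length trend removed Hsd17b4, Acads, Acadvl and Acaa2 passed (0.0312 to 0.0492).

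Within groups, many of the genes varied from library to library together with Cyp4a14, the microsomal target at the highest share of the ceiling. Deviations from the group mean on the log2 scale were correlated with those of Cyp4a14 over 22 libraries, with two-sided tests by 100000 permutations within groups, adjusted over the 34 relations. The relation passed for 22 of 34 genes, from every class but the ketogenic one. With 1 library left out at a time, 16 to 27 passed. Acaa1a, with the lowest r of the 22 (adjusted p = 0.0496), was lost in 16 of 22 such runs (adjusted p up to 0.174). All 22 (64.7% of the 34) had an r of at least 0.587, as did 2.56% of the 12263 genes tested other than Cyp4a14. The median r was 0.67 for the 34 and 0.012 for all genes. Cyp4a10 followed it most closely (Pearson's r = 0.967, Spearman's rho = 0.954, permutation p = 1e-05, the smallest these permutations can give, adjusted p = 0.00034). Next came Acot3 (r = 0.885, rho = 0.8396, permutation p = 4.0e-05, adjusted p = 0.000595), Acadm (r = 0.868, rho = 0.853), Acot1 (r = 0.854, rho = 0.895) and Acot4 (r = 0.818, rho = 0.763), the last 3 with a permutation p of at most 0.00025 for r and 0.00127 for rho. Without GF_JAX 3 and GF 2, the 2 libraries farthest from the median of Cyp4a14, r was 0.945 for Cyp4a10, 0.807 for Acot3, 0.844 for Acadm, 0.8196 for Acot1 and 0.711 for Acot4. Pdk4 (r = 0.192, rho = 0.129, permutation p = 0.4096, adjusted p = 0.4096), Ppara (r = 0.338, rho = 0.204, permutation p = 0.237, adjusted p = 0.268) and Angptl4 (r = 0.355, rho = 0.164, permutation p = 0.214, adjusted p = 0.255) did not pass. With depth as a term 22 relations passed, with the ceiling corrected 21, and without GF_JAX 1 and 4, so that each group held libraries of 1 type, 22. None of these sets held exactly the genes of the main result. With depth as a term Acaa1a was lost (adjusted p = 0.084) and Etfdh passed (adjusted p = 0.0399). With the ceiling corrected Acaa1a was lost (adjusted p = 0.065). Without GF_JAX 1 and 4, Hadha no longer passed (adjusted p = 0.0635) and Bdh1, the ketogenic gene, did (r = 0.639, rho = 0.5985, adjusted p = 0.0423).

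**Figure D4:**
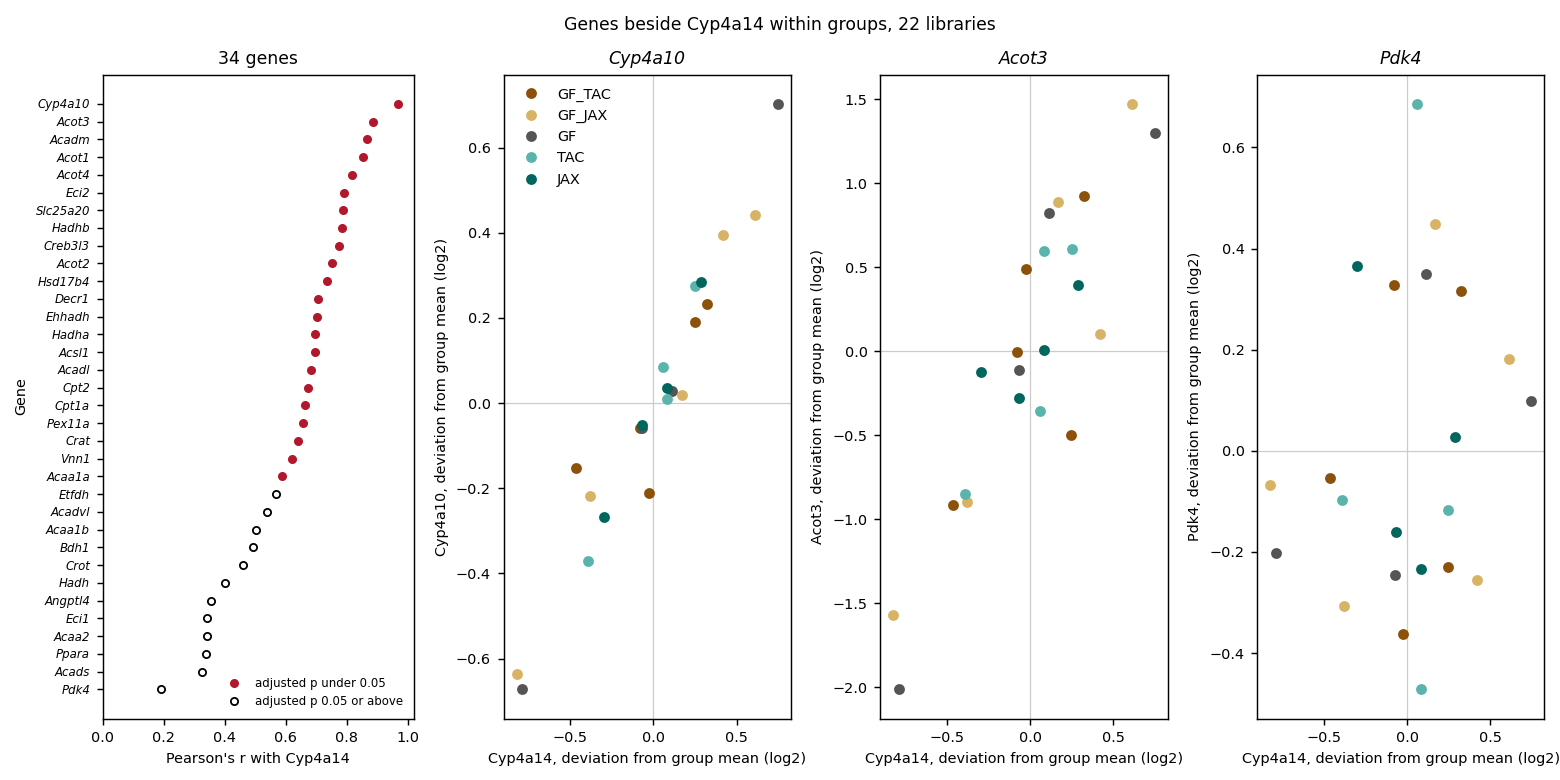
Left, Pearson's r of each of 34 genes with Cyp4a14 over the deviations of 22 libraries from their group means, red where the adjusted p was under 0.05. Right, those deviations (log2) for Cyp4a10, Acot3 and Pdk4 against Cyp4a14, coloured by group. Cyp4a10 (r = 0.967) and Acot3 (r = 0.885) rise along Cyp4a14, and Pdk4 (r = 0.192) is scattered.

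A further 120 genes of the pathway were followed beside the 35, and 115 of them were tested. In GF against JAX, 12 were higher and 28 lower, where 11.7% of all genes were higher and 12.3% lower. Against TAC 10 were higher and 24 lower, where 1362 of the 12264 genes were higher and 13.2% lower. None passed with limma in TAC against JAX, GF_JAX against GF, GF_TAC against GF or GF_TAC against GF_JAX (16, 21, 10 and 31 had an unadjusted p under 0.05). By group, the largest shares of lower genes were among the regulators and other targets, with 11 of 30 tested lower against JAX and 10 of 30 against TAC. Mitochondrial oxidation genes beyond the 35 had 3 of 16 lower against JAX, and against TAC 1 of 16 higher and none lower. Ketone body genes had 2 of 6 higher and 1 of 6 lower against each vendor. Peroxisome genes beyond the 35 had 5 of 29 lower and 4 higher against JAX, and 5 lower and 2 higher against TAC. Microsomal genes beyond the 35 had 3 of 16 lower and 5 higher against JAX, and 3 lower and 3 higher against TAC. Genes of fatty acid uptake and activation had 5 of 18 lower and 1 higher against each vendor. Cidec, a lipid droplet protein, averaged 4.25 ± 1.61 RPKM in GF, 48.2 ± 18.9 in TAC and 106 ± 4.41 in JAX (-4.41 ± 0.49, adjusted p = 7.6e-06, against JAX). Slc16a1, a carrier of lactate and ketone bodies, averaged 24.5 ± 2.61 RPKM in GF, 42.9 ± 4.95 in TAC and 43.8 ± 1.801 in JAX (-0.78 ± 0.14, adjusted p = 0.00101, against TAC). Both were lower in GF than in either vendor. Slc27a4, which takes up long fatty acids (-0.66 ± 0.10, adjusted p = 0.000578), and Gyk, glycerol kinase (-1.01 ± 0.19, adjusted p = 0.00181), were lower against TAC. Both were also lower against JAX by limma (Slc27a4 -0.56 ± 0.10, adjusted p = 0.00122, and Gyk -0.94 ± 0.19, adjusted p = 0.00237). Cyp4f14, a microsomal omega-hydroxylase, was higher in GF, with 186 ± 20.1 RPKM, against 118 ± 20.1 in TAC and 102 ± 4.25 in JAX (0.85 ± 0.13, adjusted p = 0.000265, against JAX). In the donor difference of recipients minus that of the vendors, 5 of the 115 passed, with the smallest p for Mgst3 (1.497 ± 0.29, adjusted p = 0.0102), Acadsb (-0.61 ± 0.12, adjusted p = 0.0111), Cyp4v3 (-0.54 ± 0.13, adjusted p = 0.0338) and Cyp2j5 (-0.47 ± 0.11, adjusted p = 0.0369).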

How the data were processed

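Liver RNA was sequenced in 22 libraries, and the authors deposited 1 table of RPKM values per gene. Per the submitters' processing notes, the build was mm9 and the tools were Cuffdiff 2.1.1 and Bowtie 1.0.0, whose roles are not given. Of 24397 entries, 461 had no name and 27 had turned into dates. These were left out, which left 23909 symbols, of which 6546 were at 0 in every library. Low values were whole multiples of 1 read (within 0.02 reads) for 84.8% of 3633 low genes, which gave each library's depth. No absolute counts were tested.

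Genes with at least 1 RPKM in at least 4 libraries were kept (12264). limma 3.58.1 in R 4.3.3 was fitted to log2(RPKM + 1) over all 22 libraries with group means, and two-sided p-values were adjusted by Benjamini and Hochberg's method over every gene kept, with a threshold of 0.05. In simulated data for GF against JAX on 12264 genes, 92% of changes of 1 (log2) and 42% of changes of 0.5 among 200 changed genes were recovered, with 0.7% of calls false. The simulated noise was independent between genes and held no effect of library type, depth or ceiling. These shares therefore do not describe the calls in the real libraries, where such effects occur. Correlations and figures used Python 3.11.15, numpy 2.4.6, pandas 2.3.3, scipy 1.17.1 and matplotlib 3.10.9. The ceiling correction replaced a value x by -C ln(1 - x/C), with C the library's ceiling and x/C at most 0.98.

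The 35 genes, the other lists and the tests were chosen with earlier results of these data known. Values in every library are given for each gene past the threshold in any comparison, for the 2 with the smallest p in each comparison, and for 10 chosen genes. Of the other pathway genes, at most 4 per comparison with the smallest p are named, and a few results are not reported here. Alternatives were other pseudocounts, filters and scalings, terms for depth, library type and replicate number, a ceiling correction, removal of a length trend (added after seeing the data), and leaving out each library in turn. Sequences and gene order are from RefSeq (GRCm38.p6), not the build of the files. The promoters of Vnn1, Acaa2, Decr1, Cyp4a14, Crat, Hsd17b4, Angptl4 and Cyp4a10 were not searched. Transcript lengths were taken by symbol from GENCODE's mouse annotation (longest coding transcript of each gene).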

Additional observations from a re-analysis of the deposited data

Results flagged for a closer look

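In 6 of 175 sets of values (35 genes in 5 groups), 1 library lay far from the others of its group, by a test that flags about 1 in 20 sets by chance. Acadvl was 276 RPKM in GF_TAC 5, against 303 to 308 in the other GF_TAC libraries. Acads was 188 RPKM in JAX 2, the deepest library, against 214 to 218 in the other JAX libraries. Hadhb was 183 RPKM in GF 4, the shallowest GF library, against 133 to 141 in the others. Acaa2 was 605 RPKM and Eci2 277 RPKM in TAC 2, the shallowest TAC library, against 516 to 518 and 254 to 256 in the other TAC libraries. Crot was 232 RPKM in GF_TAC 2, against 190 to 201 in the others. TAC 2 was the lowest TAC library for 26 of the 35 genes, so Acaa2 and Eci2 ran against its order.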

How the results depend on the processing

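Of the results for single genes under the alternatives, 1698 kept their direction and their side of the threshold, 173 lost their call and 5 changed sign, and of the counts of genes called 280 stayed within 1.5 times and 16 moved. Against JAX, 27 of the 35 genes passed after rescaling to a common sum, 30 after quantile normalization and 0 with library type as a term, and leaving out 1 library at a time gave 10 to 21. Against TAC, 0 passed with library type as a term, and 8 to 19 with 1 library left out. The lowest counts came without GF 1. With library type as a term, the lowest adjusted p was 0.143, and the difference changed sign to 0.15 for Acsl1, 0.11 for Cpt1a and 0.039 for Crot against JAX, and to 0.12 for Acot4 and 0.14 for Cpt1a against TAC. That term leaves GF to be compared with vendor mice through the GF_JAX libraries only. Under every alternative but that term, 10 genes passed against JAX (Acot2, Acot4, Crat, Ehhadh, Etfdh, Hadha, Hadhb, Pdk4, Pex11a, Vnn1) and 8 against TAC (Acsl1, Crot, Ehhadh, Etfdh, Hadha, Hadhb, Hsd17b4, Pex11a).

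In GF_JAX against GF, 1 gene (Pex11a) passed under a stricter filter and 1 with the length trend removed, and 0 to 1 with 1 library left out. GF_TAC against GF_JAX had 0 to 1 with 1 library left out. The donor difference in recipients minus that of the vendors had 4 with the length trend removed and 0 to 2 with 1 library left out; the cause was not tested. Rescaling moved the median of all genes by 0.19 there. Depth limits these values: abundant genes are compressed near the ceiling, by most in the deepest libraries.

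Replicate numbers did not pair the libraries: over 41 pairs with the same number, deviations correlated at -0.121 to 0.15 (median 0.0126), and with other numbers at a median of -0.011. With the replicate number as a block, 15 genes passed against JAX, 15 against TAC and 0 in the other comparisons.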

Other observations

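A pair of genes of the wider pathway list, chosen after their values were seen, ran in opposite directions. Fgf21, a hormone that the fasting liver secretes under PPAR alpha, averaged 13.3 ± 12.4 RPKM in GF, against 48.7 ± 18.1 in TAC and 62.8 ± 5.93 in JAX (SD, n = 4 each), and was lower in GF by limma (-2.36 ± 0.73 against TAC, adjusted p = 0.0258; -2.79 ± 0.73 against JAX, adjusted p = 0.0117). The recipients were at 20.98 ± 16.8 RPKM in GF_TAC and 15.4 ± 11.8 in GF_JAX (SD, n = 5 each). Bdh2, a cytosolic dehydrogenase, averaged 40.0 ± 3.91 RPKM in GF, against 15.7 ± 7.48 in TAC and 15.6 ± 2.93 in JAX, and was higher in GF (1.39 ± 0.30 against TAC, adjusted p = 0.00371; 1.32 ± 0.30 against JAX, adjusted p = 0.00476).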
